A study of Mus musculus with 16 samples.

Results

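The renin-angiotensin genes of the kidney were followed in mice given cisplatin, a platinum drug that injures the proximal tubule. The 8 members, taken by gene symbol from the 46078 genes of the deposited expression table, were Ren1, Agt, Ace, Enpep, Agtr1a, Agtr1b, Mas1 and Atp6ap2. All 16 libraries came from C57BL/6 kidneys of animals aged 20 weeks, perfused before removal and harvested 72 h after an intraperitoneal injection. The 4 groups held 4 libraries each. One received saline without preconditioning (vehicle), one cisplatin without preconditioning (cisplatin alone), one cisplatin after calorie restriction, labelled as 4 weeks before injection, and one cisplatin after hypoxia of 2, 4 and 8 h on 3 successive days. Sex, cisplatin dose and the number of animals behind each library were not given in the sources used here, so the p-values measure the spread between libraries. No preconditioned group without cisplatin was analysed here. The tissue is whole kidney, so for every gene fewer cells of a type and less RNA per cell cannot be told apart.

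Renin, an enzyme that juxtaglomerular cells of the afferent arteriole store and release, cuts angiotensinogen to angiotensin I. Angiotensin-converting enzyme (Ace) trims that peptide to angiotensin II, which raises vascular tone and sodium uptake through the type 1 receptor, encoded in mice by Agtr1a and Agtr1b. Aminopeptidase A (Enpep) shortens angiotensin II to angiotensin III, and angiotensin 1-7 is the ligand of the Mas1 receptor, with effects opposed to those of angiotensin II. Atp6ap2, the prorenin receptor, is also an accessory subunit of the vacuolar proton pump. The intrarenal system uses angiotensinogen and converting enzyme of the proximal tubule beside what arrives in blood.

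Levels are given as TPM, reads per exon length scaled to the same sum in each library, so they can be compared between genes. Between 53521599 and 68479061 reads per library were recovered from the values. The libraries of hypoxia plus cisplatin differed widely among themselves: Havcr1 (kidney injury molecule 1) stood at 582, 51.0, 409 and 0.47 TPM in libraries 1 to 4, and Slc34a1, the main phosphate transporter of the early proximal tubule, at 23.3, 754, 170 and 1509 TPM. The library labelled hypoxia plus cisplatin 4 and the library labelled calorie restriction plus cisplatin 4 were the most alike of the 120 pairs of libraries, with a root mean square difference of 0.18 on the log2 scale, against 0.22 for the next pair, which lay within 1 group. Results on these libraries are therefore also given without them. The library titles carry 2 prefixes of unstated meaning. The first is on all 4 libraries of cisplatin alone and on library 1 of calorie restriction, and the second on all others. Prefix and injection therefore cannot be told apart in cisplatin alone against vehicle. Nor can prefix and preconditioning in hypoxia plus cisplatin against cisplatin alone, and with calorie restriction they nearly coincide. Calorie restriction alone held both prefixes. A fit with the prefix as a term takes its effect from library 1 against libraries 2 to 4 of that group.

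Before the values, the stretches upstream of the 3 genes that begin the cascade are shown, because the results turn on renin, its substrate Agt and the converting enzyme Ace. Each line holds the 250 bases before the RefSeq start on GRCm38.p6, read 5′ to 3′ on the gene's strand, in lower case with motif matches in capitals.
Ren1, chr1:133350424-133350673, plus strand: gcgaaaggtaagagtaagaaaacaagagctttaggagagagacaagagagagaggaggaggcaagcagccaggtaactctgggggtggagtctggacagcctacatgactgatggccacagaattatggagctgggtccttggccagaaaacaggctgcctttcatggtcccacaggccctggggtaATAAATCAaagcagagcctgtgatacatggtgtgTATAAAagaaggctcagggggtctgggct
Agt, chr8:124569707-124569956, minus strand: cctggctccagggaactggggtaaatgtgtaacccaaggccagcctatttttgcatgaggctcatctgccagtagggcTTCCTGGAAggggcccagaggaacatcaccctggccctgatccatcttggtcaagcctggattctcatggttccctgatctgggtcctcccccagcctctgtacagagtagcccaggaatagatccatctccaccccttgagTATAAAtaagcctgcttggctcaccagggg
Ace, chr11:105967698-105967947, plus strand: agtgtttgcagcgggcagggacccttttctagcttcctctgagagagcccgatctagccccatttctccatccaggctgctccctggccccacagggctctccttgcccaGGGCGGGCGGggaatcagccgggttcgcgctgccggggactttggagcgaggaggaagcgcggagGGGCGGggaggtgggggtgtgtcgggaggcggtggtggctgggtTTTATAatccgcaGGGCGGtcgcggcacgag
In each line 1 run of capitals marks the TATA box letters TATAAA. They begin 29 bases before the start in Ren1, 30 in Agt and 31 in Ace, where the match is on the opposite strand and reads TTTATA. The same letters on either strand occurred in 13.62% of 32851 promoter windows, each with 250 bases before and 50 after the start. The other capitals of Ren1 begin 63 bases before the start and match, on the opposite strand, the pattern TGATTNAT of joint Hox and Pbx binding, present on either strand in 3.22% of windows. A Hox and Pbx site in this stretch is a described element of the mouse renin promoter. In Agt, 172 bases before the start, they are a match to the STAT pattern TTCNNNGAA, found in 8.3% of windows. STAT3 is known to drive angiotensinogen in the acute-phase response of the liver. In Ace the other capitals are 4 matches to the GC box letters GGGCGG, which begin 140, 136, 75 and 18 bases before the start, the first and second sharing bases. These letters occurred on either strand in 35.66% of windows. None of these matches overlaps a TATA box. A match is a description of the letters only. Windows were at hand for 7 of the 8 members, Agtr1a being the exception.

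In cisplatin alone the enzymes and the main receptor of the pathway were low, and the substrate Agt stood higher in every library without passing the test. Levels of Ren1, Ace, Enpep, Agtr1a and Atp6ap2 fell against vehicle, by 0.61 to 2.36 on the log2 scale, and Agt averaged 54.4 TPM against 25.5. With calorie restriction before cisplatin the 5 genes that had fallen were higher than in cisplatin alone and Agt was lower, and none of the 6 differences from vehicle passed the test. With hypoxia before cisplatin, Ace, Enpep, Agtr1a and Atp6ap2 were higher than in cisplatin alone, and the mean of Agt was the highest of any group at 79.0 TPM. Tests were made with limma on log2(TPM + 1), on the 15014 genes that reached 1 TPM in 4 or more libraries, with p-values adjusted over all of those genes (Benjamini-Hochberg, threshold 0.05). Agtr1b and Mas1 did not reach that filter, and the 6 members tested are those whose level is at least 1 TPM in every library.

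**Figure D1:**
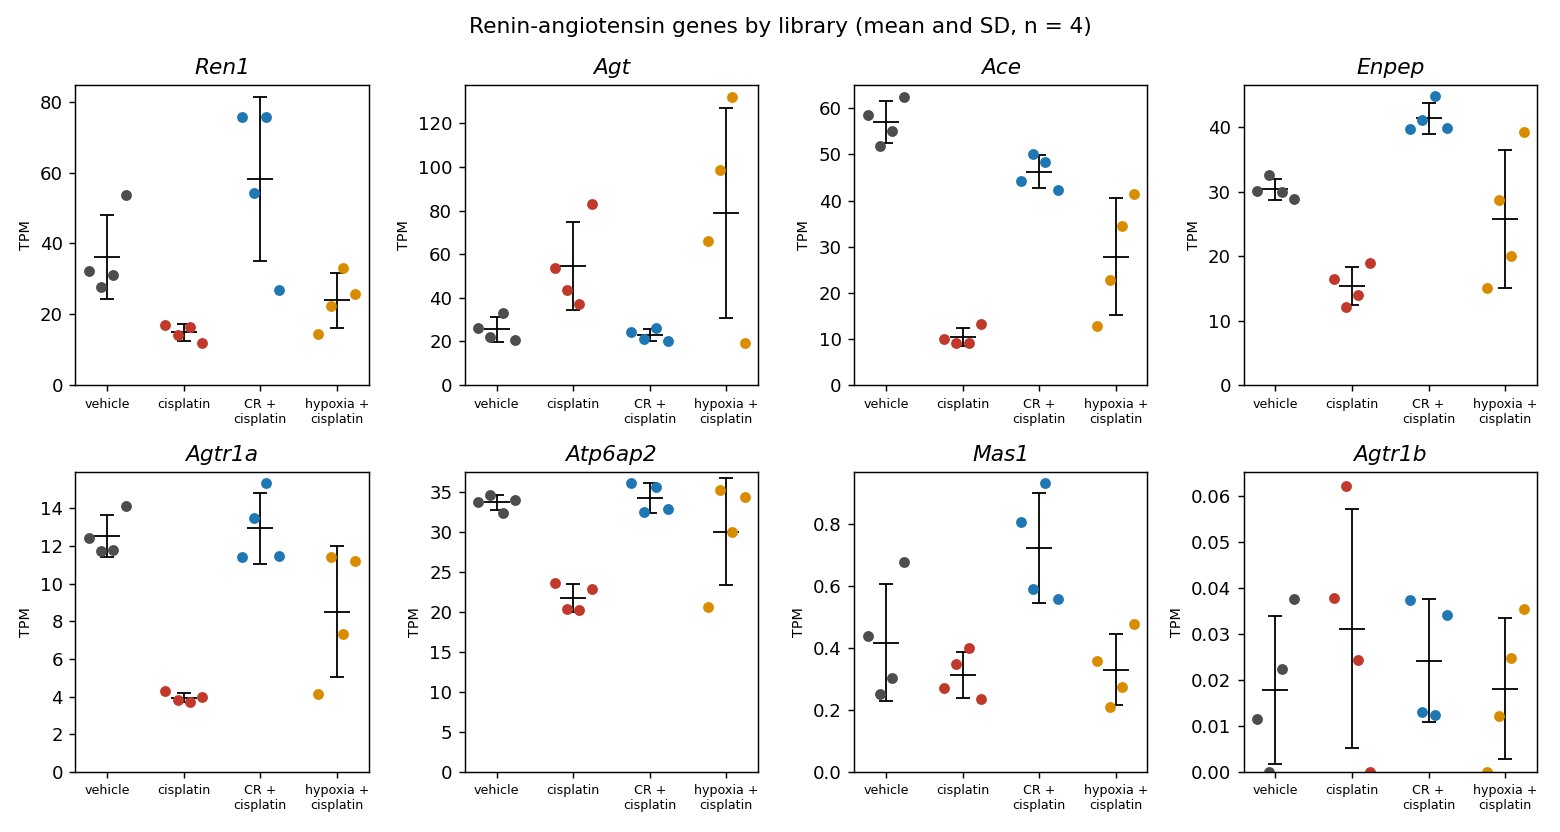
TPM (vertical axis, from 0) of each member in the 4 groups, 1 point per library, with libraries 1 to 4 from left to right in each group and the mean and SD of 4 libraries in black. Cisplatin alone lies below vehicle for Ace (9.05 to 13.3 against 51.8 to 62.4 TPM) and above it for Agt, and the hypoxia libraries are spread widely.

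The counts of members past the test need to be read beside the share of all genes that passed. In cisplatin alone against vehicle 5 of the 6 members were lower and 0 higher, where 66.8% of all genes tested passed, 28.8% as lower. Calorie restriction plus cisplatin against cisplatin alone gave 5 higher and 1 lower, with 67.3% of genes passing, 29.8% as higher and 37.4% as lower. With shares this large the counts by themselves do not set the members apart. Hypoxia plus cisplatin against cisplatin alone gave 4 higher, with 29.4% of genes passing and 16.4% as higher. Calorie restriction plus cisplatin against vehicle gave 0 of 6, with 0.0533% of genes passing. In that comparison 0 members were under an unadjusted p of 0.05 by limma and 1 by limma with voom weights on the recovered reads. Hypoxia plus cisplatin against vehicle gave 1 higher and 2 lower, with 29.3% of genes passing, 19.2% as higher and 10.1% as lower. Calorie restriction against hypoxia, both with cisplatin, gave 4 higher and 1 lower, with 24.3% passing, 9.24% as higher and 15.0% as lower. The libraries of the 2 groups did not overlap for all 6 members in cisplatin alone against vehicle (63.5% of all genes tested) and in calorie restriction against cisplatin alone (64.8%). In hypoxia this held for 0 members against cisplatin alone (15.5% of genes) and for 2 against vehicle (15.2%). It held for 2 in calorie restriction against vehicle (9.16%) and for 3 in calorie restriction against hypoxia (9.8%). With the title prefix as a term in the fit, Enpep (-0.88, adjusted p = 0.129) and Atp6ap2 (-0.71, adjusted p = 0.0546) lost their calls in cisplatin alone against vehicle, with differences within 1.5 times those without the term. Agt lost its call in calorie restriction against cisplatin alone (-1.07, adjusted p = 0.235). In hypoxia against cisplatin alone 0 members were called, with Ace at 1.16, Enpep at 0.56, Agtr1a at 0.65 and Atp6ap2 at 0.52 (adjusted p from 0.464 to 0.561). A fit of hypoxia and cisplatin alone without the other groups also called 0 members. In both of these fits 0 of all 15014 genes tested passed. Calorie restriction library 1, which carries the prefix of cisplatin alone, had Ren1 at 75.6, Agt at 24.2, Ace at 44.2, Enpep at 39.6, Agtr1a at 11.4 and Atp6ap2 at 36.2 TPM, outside the range of cisplatin alone for each. This 1 library also differs from cisplatin alone in preconditioning, and the part of the prefix in these values was not tested. The comparisons share groups of libraries and are not independent of one another. The median change over the 6 members was -1.07 in cisplatin alone against vehicle, where the median of all genes tested was 0.08.

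**Figure D2:**
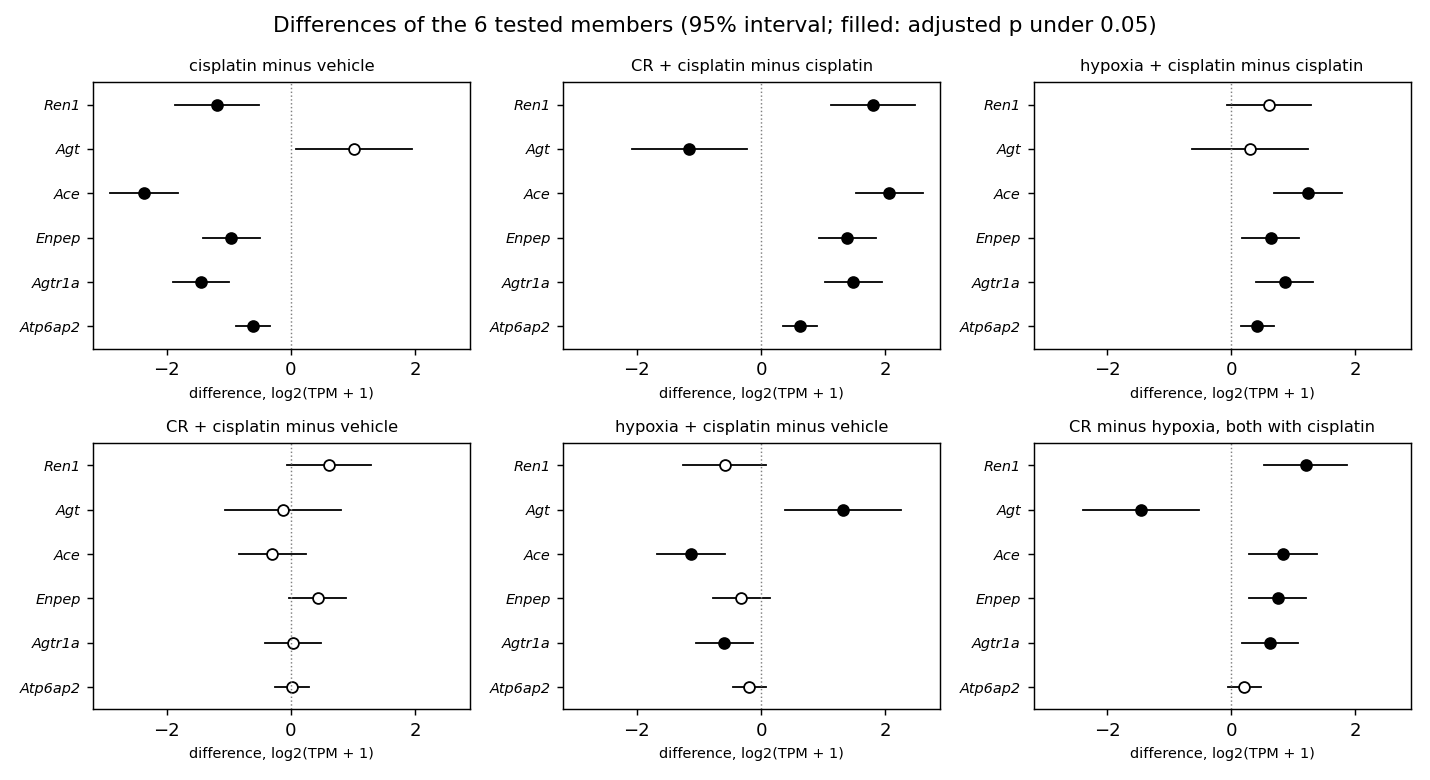
Difference of log2(TPM + 1) between the 2 groups named above each panel (horizontal axis) for the 6 members tested, with the 95% interval of the limma fit. Filled points have an adjusted p under 0.05: 5 of 6 in the cisplatin panel, 6 with calorie restriction, and none for calorie restriction against vehicle.

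Ren1 (ENSMUSG00000070645, chromosome 1, 133350510 to 133360325, plus strand, GRCm38), the only renin gene of this strain, was low after cisplatin and high after calorie restriction. Its levels were 32.1, 27.8, 31.0 and 53.7 TPM in vehicle libraries 1 to 4, the order used throughout. In cisplatin alone they were 17.1, 14.1, 16.5 and 11.9 TPM. Every library of cisplatin alone lay under every vehicle library, with means of 14.9 ± 2.38 and 36.2 ± 11.9 TPM (SD, n = 4). The difference was -1.19 on the log2 scale (SE 0.31, limma adjusted p = 0.00404), and -1.83 with the title prefix as a term (adjusted p = 0.0438). That term rests on calorie restriction library 1 against the other libraries of its group. After calorie restriction the libraries read 75.6, 54.4, 75.8 and 27.0 TPM, the last from the library that resembles hypoxia library 4. All 4 stood above cisplatin alone, a rise of 1.80 (SE 0.31, limma adjusted p = 0.000224) or 3.91-fold in mean TPM, and of 2.13 without library 4. After hypoxia Ren1 read 14.4, 22.4, 33.1 and 25.8 TPM, overlapping both vehicle and cisplatin alone. Its difference from cisplatin alone, 0.61 (95% interval -0.07 to 1.28), did not pass (limma adjusted p = 0.152). It was called at 0.82 without hypoxia library 1 (adjusted p = 0.0447), and was 1.25 with the title prefix as a term (adjusted p = 0.464).

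The order of group means for Ren1 was calorie restriction at 58.2, vehicle at 36.2, hypoxia at 23.9 and cisplatin alone at 14.9 TPM. No neighbouring pair in that order passed the test. Calorie restriction against vehicle came to 0.61 (95% interval -0.06 to 1.29, unadjusted p = 0.0714 from limma). Markers of the vessel wall, where renin cells lie, are given beside these values. The summed level of 10 smooth muscle and pericyte markers ran from 59.1 to 78.1 TPM in vehicle and from 76.1 to 85.5 TPM in cisplatin alone. Of 9 tested, 3 rose (Notch3, Mcam and Pdgfrb) and 1 fell (Rgs5, by 0.68), where 66.8% of all genes tested passed. Their median change was 0.18, near the 0.08 of all genes tested.

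A list of 17 genes of the juxtaglomerular cell and of renin control was also examined. In cisplatin alone against vehicle 5 of the 13 tested were higher and 2 lower, where 66.8% of all genes tested passed. Their median change was 0.11, near the 0.08 of all genes tested. Adora1, the adenosine receptor that mediates inhibition of renin release, rose by 1.88 from a mean of 1.09 to 6.52 TPM (limma adjusted p = 4.19e-05). Ptger4, a prostaglandin E2 receptor that stimulates release, rose by 0.76, and Gja5, the connexin that couples renin cells, by 0.41. Nr1h3, the liver X receptor alpha that binds the renin promoter, fell by 0.94, from 16.5 to 8.22 TPM. Akr1b7, an enzyme co-expressed with renin, stood at 0.82 against 1.24 TPM (difference -0.30, limma adjusted p = 0.122). After calorie restriction Adora1 (-2.04), Ptger4 (-0.83) and Gja5 (-0.43) were lower than in cisplatin alone and Nr1h3 (0.97) was higher. Adora1 and Nr1h3 are expressed well beyond the renin cell.

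Ptgs2 (cyclooxygenase 2), an enzyme of the macula densa whose prostaglandins stimulate renin, moved opposite to Ren1. It read 0.31, 0.15, 0.44 and 0.05 TPM in vehicle and 5.34, 6.63, 5.60 and 3.65 TPM in cisplatin alone, with no overlap. The rise was 2.34 (limma adjusted p = 0.000201). After calorie restriction its highest library was at 0.26 TPM, and after hypoxia it read 5.63, 0.40, 1.86 and 0.08 TPM. Of the 3 macula densa genes that could be tested, Robo2 fell by 0.75 in cisplatin alone, and Avpr1a stood at 2.00 against 1.92 TPM. Injured cells of other kinds also make Ptgs2, and their part in its level was not tested.

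Agt (ENSMUSG00000031980, chromosome 8, 124556534 to 124569706, minus strand) is the angiotensinogen substrate. The vehicle libraries read 26.3, 22.2, 33.1 and 20.4 TPM and cisplatin alone 53.9, 43.6, 37.3 and 82.9 TPM, with no overlap. The difference of 1.02 (SE 0.44, 95% interval 0.09 to 1.95) narrowly missed the threshold (limma adjusted p = 0.0511). It passed with values rescaled after leaving out 48 genes (1.17, adjusted p = 0.0243), which were mitochondrial and haemoglobin genes and the 10 most abundant. The same held with voom weights on the recovered reads (1.18, adjusted p = 0.0269) and in a fit of the 2 groups alone (adjusted p = 0.00445). It also held without cisplatin library 3 (1.18, adjusted p = 0.0447). It did not pass with the title prefix as a term (0.91, adjusted p = 0.432), without the filter (adjusted p = 0.0822) or with a pseudocount of 0.1 (adjusted p = 0.0505). Among the fits of this comparison that left out 1 library, the one without cisplatin library 3 was the only one to call Agt. Without library 4 of cisplatin alone the difference was 0.80 (adjusted p = 0.143), and without vehicle library 4 it was 0.93 (adjusted p = 0.109). Calorie restriction brought 24.2, 20.96, 26.2 and 20.4 TPM, all below cisplatin alone, a fall of 1.15 (limma adjusted p = 0.0303). That call was lost when library 1 or 4 of cisplatin alone or library 2 or 4 of calorie restriction was left out, with adjusted p from 0.0568 to 0.092.

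After hypoxia Agt read 66.1, 98.8, 131.9 and 19.2 TPM. Libraries 1 to 3 lay above all vehicle libraries and library 4 below all of them, close to the 20.4 TPM of calorie restriction library 4. Against vehicle the rise was 1.32 (limma adjusted p = 0.0381), and without hypoxia library 4 it was 1.88 (adjusted p = 7.43e-05). Leaving out any vehicle library or hypoxia library 1, 2 or 3 ended the call, with adjusted p from 0.0531 to 0.123. Against cisplatin alone the difference was 0.30 with all libraries (limma adjusted p = 0.619) and 0.86 without hypoxia library 4 (adjusted p = 0.0376), so that 1 library decided this comparison. The group means ran from hypoxia at 79.0 through cisplatin alone at 54.4 and vehicle at 25.5 to calorie restriction at 22.9 TPM, and no neighbours in that order passed the test.

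Fat around the kidney also makes angiotensinogen. The summed level of 6 adipocyte markers was 19.2, 22.0, 27.6 and 251.4 TPM in cisplatin alone, 5.24, 4.75, 69.8 and 5.59 TPM in vehicle, 7.30, 7.46, 11.3 and 113.9 TPM after calorie restriction, and 16.9, 228.2, 31.9 and 111.7 TPM after hypoxia. The library with the most of these markers had the highest Agt of its group in cisplatin alone (library 4, 82.9 TPM) and in vehicle (library 3, 33.1 TPM). In hypoxia library 2, with 228.2 TPM of markers, had Agt at 98.8 TPM, and library 3, with 31.9, had Agt at 131.9 TPM. Library 4 of calorie restriction and of hypoxia, with 113.9 and 111.7 TPM of markers, had the lowest Agt of their groups (20.4 and 19.2 TPM). The part of fat in the Agt values was not tested. The straight proximal tubule is a known renal source of angiotensinogen. All 7 of its markers tested fell in cisplatin alone, to a summed 426.1 to 652.1 TPM from 2266 to 2385 TPM in vehicle. In that comparison 28.8% of all genes tested passed as lower. Of 12 adrenal markers 0 reached the filter, and the steroid enzymes Cyp11b1 and Cyp11b2 were at 0 in all libraries.

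Renin and its substrate can be set against each other within a library. The ratio of Ren1 to Agt in TPM was 0.94 to 2.63 in vehicle, 0.14 to 0.44 in cisplatin alone and 1.32 to 3.12 after calorie restriction. In hypoxia libraries 1 to 3 it was 0.22, 0.23 and 0.25, within the range of cisplatin alone, and in library 4 it was 1.35. These ratios describe RNA levels and carry no test of their own.

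**Figure D3:**
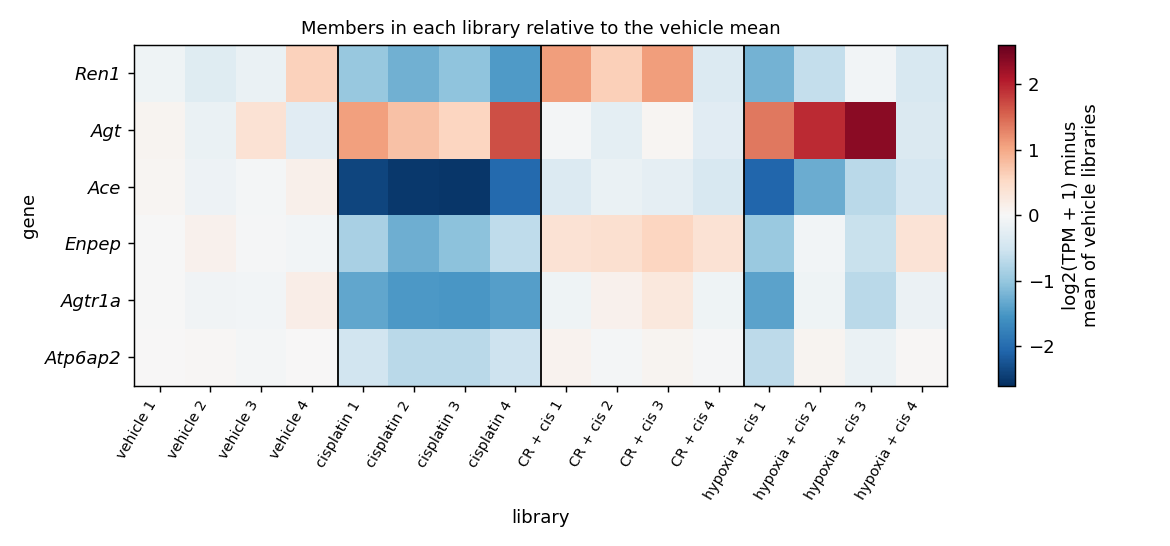
Each member (rows) in each library (columns) as log2(TPM + 1) minus the mean of the 4 vehicle libraries, blue for lower and red for higher. Cisplatin libraries and hypoxia library 1 share 1 pattern, blue except for Agt. Hypoxia library 4 and the calorie restriction libraries are pale, apart from Ren1 in calorie restriction libraries 1 to 3.

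Ace (ENSMUSG00000020681, chromosome 11, 105967945 to 105989964, plus strand) had the largest change of the members. It stood at 58.6, 51.8, 55.1 and 62.4 TPM in vehicle and at 10.005, 9.17, 9.05 and 13.3 TPM in cisplatin alone, means of 57.0 ± 4.55 and 10.4 ± 1.97 TPM (SD, n = 4). The fall was 2.36 on the log2 scale (SE 0.25, limma adjusted p = 3.57e-05), a level 5.49-fold lower. Calorie restriction gave 44.2, 50.1, 48.4 and 42.3 TPM, 2.07 above cisplatin alone (limma adjusted p = 5.83e-05). Every one of these lay under the lowest vehicle library, although the difference of -0.30 (95% interval -0.84 to 0.25) did not pass. After hypoxia Ace read 12.8, 22.7, 34.5 and 41.5 TPM. The rise over cisplatin alone was 1.24 (limma adjusted p = 0.00677) and was 1.01 without hypoxia library 4, and the level stayed 1.13 under vehicle (adjusted p = 0.0129). Of the 3 calls in hypoxia plus cisplatin against vehicle, that of Ace alone held whichever single library was left out.

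Enpep (ENSMUSG00000028024, chromosome 3, 129269175 to 129332720, minus strand), the brush border enzyme that makes angiotensin III, read 30.2, 32.6, 29.9 and 28.8 TPM in vehicle and 16.5, 12.03, 14.03 and 18.9 TPM in cisplatin alone. It fell by 0.96 (SE 0.21, limma adjusted p = 0.00132). After calorie restriction it read 39.6, 41.0, 44.9 and 39.9 TPM, 1.39 above cisplatin alone (limma adjusted p = 0.000105) and above every vehicle library. Against vehicle the difference of 0.43 (95% interval -0.03 to 0.89) passed only in a fit of those 2 groups alone (adjusted p = 0.0284). Hypoxia gave 15.0, 28.7, 20.0 and 39.3 TPM, 0.64 above cisplatin alone (limma adjusted p = 0.0381). Without hypoxia library 4 that difference was 0.41 and did not pass (adjusted p = 0.102), and the same held without hypoxia library 2 or cisplatin library 1, 2 or 3, with adjusted p from 0.0593 to 0.105.

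Both enzymes are known from the brush border of the proximal tubule, and Ace from endothelium as well. All 8 markers of the early proximal tubule fell in cisplatin alone (median -3.56), to a summed 179.9 to 268.8 TPM from 2962 to 3708 TPM in vehicle. After calorie restriction their sum was 2910 to 3524 TPM and after hypoxia 298.0 to 3029 TPM. Of 7 endothelial markers tested, 4 fell and 1 rose in cisplatin alone, with a median of -0.75, and the others did not pass. In this comparison 66.8% of all genes tested passed, 28.8% as lower, and the median of all genes was 0.08. In the same comparison 5 of 6 tubule injury markers rose, podocyte markers gave 2 higher and 1 lower of 6, fibroblast markers 3 higher of 6 and leukocyte markers 2 higher and 2 lower of 4. The part of these cell types in the levels of Ace and Enpep was not tested.

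Among 15 other peptidases that make or break angiotensins, 11 could be tested. In cisplatin alone 4 fell and 3 rose, where 66.8% of all genes tested passed. The median over the 11 was 0.09, near the 0.08 of all genes tested. Those that fell were the membrane enzymes Mme (neprilysin, by 1.97) and Anpep (aminopeptidase N, by 0.85), and the lysosomal carboxypeptidases Ctsa (by 1.07) and Prcp (by 0.55). Ctsd, a lysosomal protease with renin-like activity, rose by 1.45, from 228.5 to 624.7 TPM. Nln (neurolysin) rose by 0.37 and Lnpep, the angiotensin IV binding protein, by 0.38. For the cytosolic enzymes Thop1, Prep, Rnpep and Dpp3 the differences lay between 0.01 and 0.14 and did not pass. With calorie restriction all 7 that had changed went the opposite way relative to cisplatin alone, where 67.3% of all genes tested passed. None of the 11 passed against vehicle, where 0.0533% of all genes did. Ctsg, Cma1, Mcpt4 and Cpa3, proteases of mast cells and granulocytes, were under the filter.

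In the hypoxia group Anpep rose as far as with calorie restriction (1.23 in both), whereas Mme rose by 0.97 against 1.87 and lost its call without hypoxia library 4.

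**Figure D4:**
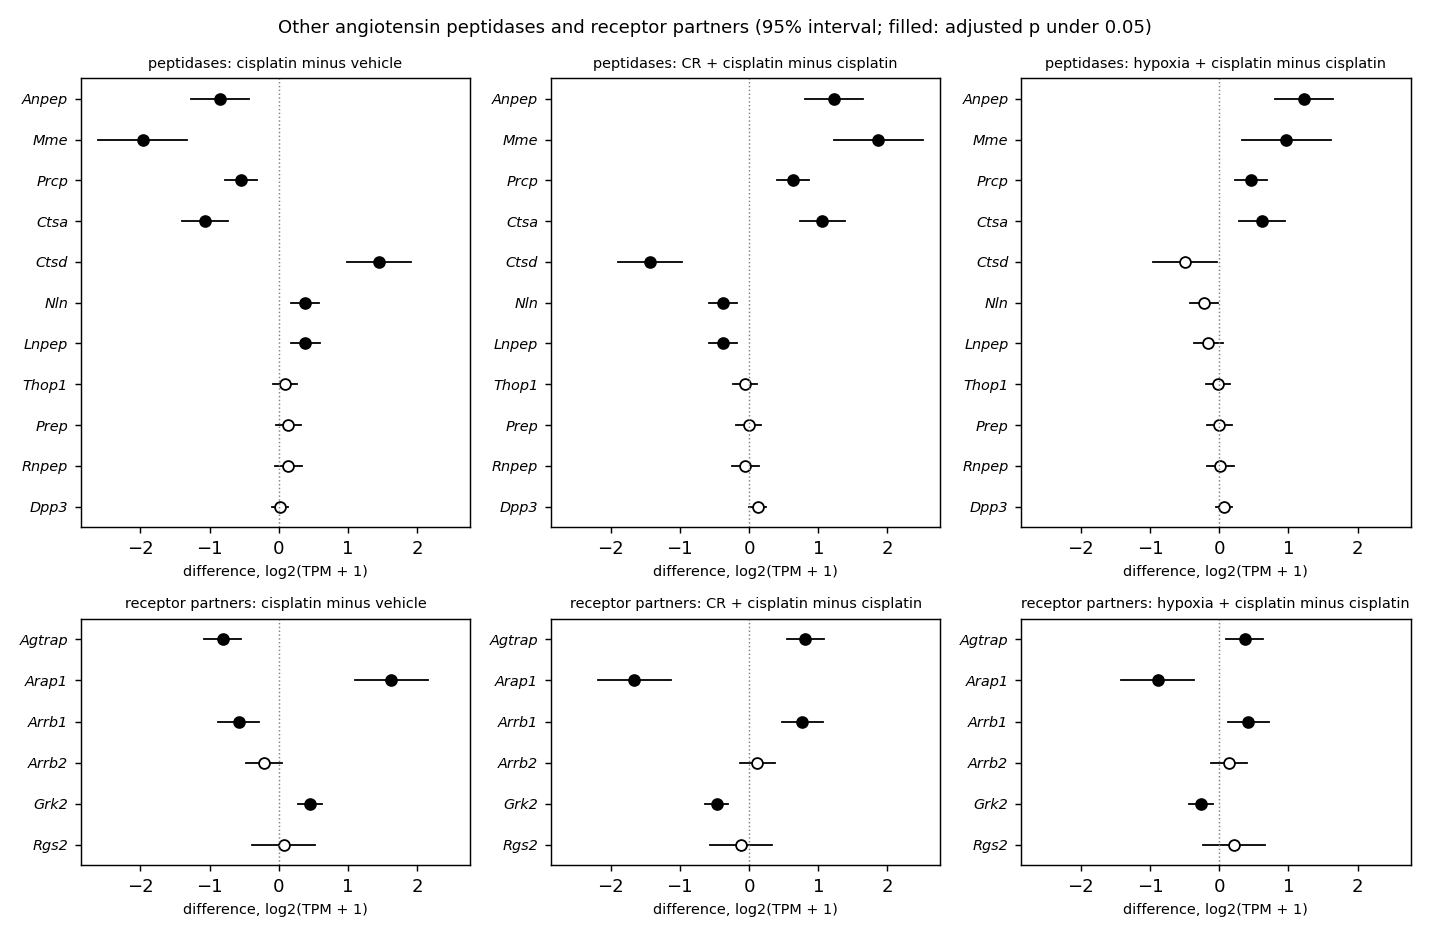
Differences of log2(TPM + 1) with 95% intervals for the 11 other angiotensin peptidases tested (upper row) and 6 receptor partners (lower row), in cisplatin alone against vehicle and in each preconditioned group against cisplatin alone. Filled points have an adjusted p under 0.05: Mme, Anpep, Ctsa and Prcp lie left of 0 in the first panel and right of 0 in the others.

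Agtr1a (ENSMUSG00000049115, chromosome 13, 30336441 to 30382867, plus strand), the main angiotensin II receptor of the mouse kidney, fell sharply and evenly. Its levels were 12.5, 11.7, 11.8 and 14.1 TPM in vehicle and 4.27, 3.81, 3.72 and 3.98 TPM in cisplatin alone, a fall of 1.45 (SE 0.21, limma adjusted p = 7.57e-05). After calorie restriction they were 11.4, 13.5, 15.4 and 11.47 TPM, overlapping vehicle and 1.49 above cisplatin alone (adjusted p = 7.46e-05). The interval of the difference from vehicle ran from -0.42 to 0.49. After hypoxia the receptor read 4.11, 11.4, 7.35 and 11.2 TPM, 0.86 above cisplatin alone (limma adjusted p = 0.0119) and 0.71 without hypoxia library 4, still called. Hypoxia library 1 lay inside the range of cisplatin alone, and all 4 lay under the lowest vehicle library. The fall of 0.59 against vehicle passed barely (limma adjusted p = 0.0498). It did not pass when any vehicle library or hypoxia library 1 or 3 was left out, and without hypoxia library 1 the difference was -0.32 (adjusted p = 0.11).

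The second type 1 receptor, Agtr1b (ENSMUSG00000054988, chromosome 3, 20314473 to 20367177, minus strand), was barely detected. It had 30 reads in all 16 libraries together, between 0 and 5 in each, and at most 0.06 TPM. The group sums were 6 reads in vehicle, 10 in cisplatin alone, 8 after calorie restriction and 6 after hypoxia, with exact Poisson intervals (95%, counting error only) of 2.2 to 13.06, 4.8 to 18.39, 3.45 to 15.76 and 2.2 to 13.06 reads. A difference between groups was not detectable at this depth. Agtr2, the type 2 receptor, had 21 reads in all, and Mrgprd, a receptor for alamandine, 1 read.

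Mas1 (ENSMUSG00000068037, chromosome 17, 12841079 to 12868143, minus strand), the angiotensin 1-7 receptor, was low but measurable, with 21 to 92 reads per library. Vehicle read 0.44, 0.25, 0.30 and 0.68 TPM, cisplatin alone 0.27, 0.35, 0.40 and 0.23 TPM, calorie restriction 0.81, 0.59, 0.93 and 0.56 TPM, and hypoxia 0.36, 0.21, 0.27 and 0.48 TPM. The calorie restriction libraries lay above all others with cisplatin. An exact permutation test of 4 against 4 libraries gave p = 0.0286, the smallest it can give, for calorie restriction against cisplatin alone and against hypoxia, and an adjusted p of 0.171 over 12 such tests of Mas1 and Agtr1b. Without the filter, limma gave 0.39 for the former (adjusted p = 0.00593). The antisense gene Airn overlaps Mas1, and whether the counting used strand was not given in the sources used here, so their reads cannot be told apart. Airn read 3.03 to 3.60 TPM in cisplatin alone, 1.42 to 2.74 TPM in vehicle and 1.91 to 2.26 TPM after calorie restriction, and 3.72, 2.58, 2.96 and 1.76 TPM after hypoxia. The part of Airn reads in the Mas1 values was not tested.

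Partners of the type 1 receptor were split. Of 6 tested in cisplatin alone against vehicle, 2 fell and 2 rose, where 66.8% of all genes tested passed. Agtrap, a protein that promotes internalisation of the receptor, fell by 0.81 (22.3 to 12.3 TPM, limma adjusted p = 9.39e-05), and Arrb1, a beta-arrestin, fell by 0.58. Arap1, known to bear on delivery of the receptor to the surface, rose by 1.63 (4.63 to 16.4 TPM, limma adjusted p = 9.31e-05). Grk2, a kinase of active receptors, rose by 0.45. Arrb2 (-0.21) and Rgs2 (0.07) did not pass. Each of the 4 moved in the opposite direction with calorie restriction relative to cisplatin alone, where 67.3% of all genes passed. With hypoxia the same 4 passed against cisplatin alone, where 29.4% of all genes did. Without hypoxia library 4 Arap1 (-0.61) was the remaining call, where 19.2% of all genes passed.

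Atp6ap2 (ENSMUSG00000031007, chromosome X, 12587801 to 12617049, plus strand), the prorenin receptor, had the smallest difference of the 6 members tested in cisplatin alone against vehicle and in calorie restriction against cisplatin alone. It read 33.7, 34.6, 32.4 and 34.1 TPM in vehicle and 23.7, 20.4, 20.3 and 22.9 TPM in cisplatin alone, a fall of 0.61 (SE 0.13, limma adjusted p = 0.000763). Calorie restriction gave 36.2, 32.6, 35.6 and 32.9 TPM, 0.63 above cisplatin alone (adjusted p = 0.000586) and overlapping vehicle. Hypoxia gave 20.7, 35.3, 30.0 and 34.4 TPM, with library 1 inside the range of cisplatin alone. Its rise of 0.42 (limma adjusted p = 0.0256) was lost without hypoxia library 2 or 4 or without cisplatin library 2 or 3, with adjusted p from 0.0654 to 0.082. Most other subunits of the proton pump showed the same direction. Of 18 tested, 13 fell and 2 rose in cisplatin alone, where 66.8% of all genes tested passed, 28.8% as lower. Their median was -0.26, against 0.08 for all genes tested. Those that fell included Atp6v1e1 (by 0.90), Atp6v1a (by 0.66) and Atp6v1d (by 0.55). Atp6v0a1, a membrane subunit, rose by 1.33.

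Downstream and neighbouring systems gave further values. Of 9 genes of the aldosterone response, 5 fell and 1 rose in cisplatin alone, where 66.8% of all genes tested passed, 28.8% as lower. Nr3c2, the mineralocorticoid receptor, fell by 0.65, and Scnn1g, the gamma subunit of the epithelial sodium channel, by 1.12. Tsc22d3 fell by 0.78 and Fkbp5 rose by 1.25. Both of these are also targets of the glucocorticoid receptor. Klk1, tissue kallikrein, which releases kinins that Ace degrades, read 1479, 1695, 1354 and 1361 TPM in vehicle and 209.2, 211.8, 163.4 and 336.6 TPM in cisplatin alone. It fell by 2.72 (limma adjusted p = 0.000271), and Kng2, a kininogen, by 0.93. With calorie restriction Klk1 read 1352 to 1613 TPM, and with hypoxia 165.4, 1058.6, 753.6 and 1569.4 TPM.

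Hypoxia library 1 was the lowest of its group for Ren1, Ace, Enpep, Agtr1a and Atp6ap2, and it also had the highest Havcr1. Library 3, with Havcr1 at 409 TPM, had Ren1 at 33.1 and Ace at 34.5 TPM, above library 2 with Havcr1 at 51.0 TPM. Without hypoxia library 4, hypoxia plus cisplatin against cisplatin alone called Agt, Ace and Agtr1a as higher, where 19.2% of all genes passed. Against vehicle Agt was then higher and Ace, Enpep and Agtr1a lower, where 51.3% passed. Calorie restriction against hypoxia gave Ren1 higher by 1.198, Ace by 0.83, Enpep by 0.75 and Agtr1a by 0.63, and Agt lower by 1.45 (limma adjusted p from 0.0279 to 0.0456). All 5 calls were lost when any calorie restriction library or hypoxia library 1 or 3 was left out, and 3 remained without hypoxia library 2. In each fit that lost all 5 calls, 0 of all 15014 genes tested passed. In these fits 5 members were still under an unadjusted p of 0.05 by limma. Without hypoxia library 2, 3208 of all genes passed. With a calorie restriction library left out the differences stayed about as large, at 1.04 to 1.52 for Ren1 and -1.51 to -1.40 for Agt. Without hypoxia library 1 Ace was 0.52 (adjusted p = 0.0793) and Agtr1a 0.36 (adjusted p = 0.0978). Without hypoxia library 4 all 5 held, with Agt at -2.01 (adjusted p = 4.68e-05), and 51.0% of all genes passed.

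The genes most like each member were sought among the genes tested that have a named symbol (no Gm, Rik or pseudogene names). The measure was Pearson's r of log2(TPM + 1) over the 16 libraries. Since these libraries fall into groups, the values describe a shared group pattern and carry no p. Agtr1a was followed most closely by Xylb (r = 0.99), Ccdc107 and Cideb, Ace by Akr1c14 (0.99), C8a and Ugt8a, and Enpep by Serp1 (0.99), Arsb and Lman2. For Atp6ap2 they were Scp2 (0.99), Slc5a12 and Ahcyl2. Agt was nearest to Map4k3 (0.97), Zc3h12d and Noct. Ren1 had the loosest matches, Neurog2 (0.92), Sec14l3 (0.90) and Lama1 (0.89).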

How the data were processed

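Total RNA of whole kidneys, depleted of ribosomal RNA per the labels' protocols, was sequenced in 16 libraries. The authors deposited 1 table of TPM values per gene and library. The labels name no unit: it was read from the column sums, which are 1000000. The submitters' processing notes name STAR 2.5, featureCounts, Subread 1.5 and the builds mm10 and GRCm38, without role or setting. Groups came from the injection and preconditioning labels. The labels number no replicates, so libraries are numbered in accession order and no pairing was made.

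The members and gene lists were chosen with earlier results of these data known. TPM are not counts, so log2(TPM + 1) of the 15014 genes that reached 1 TPM in 4 or more libraries was fitted with limma 3.58.1 in R 4.3.3 (statmod 1.5.0) over all 16 libraries by group alone, with a trended, robust prior variance, after a check on simulated data. Tests are 2-sided. All groups share 1 estimate of the spread, to which the uneven hypoxia group adds. TPM multiplied by exon length (GENCODE M21) gave whole reads, within 0.01, for 24716 of 32198 genes with reads (76.8%), and another length did so for 7469 genes, among them Agtr1a. These recovered reads gave the depth, the reads of low genes and a voom fit. Named genes beside the 8 members are the peptidases and receptor partners of 2 lists (1 peptidase is not reported here), a few preset genes and up to 4 per other list with the smallest adjusted p in cisplatin alone against vehicle. Upstream sequences are from RefSeq. Alternatives were a pseudocount of 0.1, no filter, the compared groups alone, the title prefix as a term, voom, and leaving out each library. Another was rescaling after leaving out mitochondrial, haemoglobin and the most abundant genes.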

Additional observations from a re-analysis of the deposited data

Results flagged for a closer look

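One value stood far from the others of its group: Ren1 in vehicle library 4 was 53.7 TPM, where the other 3 vehicle libraries were between 27.8 and 32.1 TPM. The gap was 0.831 of the range of the group. Chance flags about 1 in 20 groups, and 32 groups were looked at. Without this library the fall of Ren1 in cisplatin alone against vehicle was 0.99 and still passed (limma adjusted p = 0.0159).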

How the results depend on the processing

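Values from the composition-adjusted fit, the voom fit and the pseudocount of 0.1 left the number of members called within 1.5 times that reported in each of the 6 comparisons. Rescaling moved the median of all genes in cisplatin alone against vehicle from 0.08 to 0.21 and voom moved it to 0.24. The direction of Ren1, Agt, Ace, Enpep, Agtr1a and Atp6ap2 there was kept under all alternatives. With the title prefix as a term, 3 members were called in that comparison, and 40 genes of the other lists in place of 83. Of all genes tested, 3413 passed with the term and 10032 without it. For hypoxia against cisplatin alone, 0 members and 0 list genes were called with the prefix term or in the compared groups only, against 4 and 52. In both settings 0 of all genes tested passed, against 4420. Leaving out 1 library gave 2 to 5 members and 26 to 72 list genes, where 2210 to 7156 of all genes passed. Calorie restriction against vehicle gave 1 member in the compared groups only, where 80 of all genes passed. Hypoxia against vehicle gave 1 without the filter, 0 in the compared groups only, and 1 to 4 when 1 library was left out. Over all genes the numbers passing were 2956 (of 32198), 11 and 692 to 7709 (of 15014). Calorie restriction against hypoxia gave 0 members without the filter, in the compared groups only and with the prefix term. In each of these settings 0 of all genes passed. When 1 library was left out it gave 0 to 5 members, where 0 to 7654 of all genes passed. Leaving out 1 library gave 5 to 6 members in cisplatin alone against vehicle and in calorie restriction against cisplatin alone. In these fits 9363 to 9995 of all genes passed. For the members below the filter, 1 test passed without the filter. The cause of these changes was not tested.

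Signs turned in a few differences near 0 that had not passed. Agt in hypoxia against cisplatin alone ran from -0.045 to 0.862 when 1 library was left out, and Akr1b7 in the same comparison was -0.011 without cisplatin library 1 and -0.021 without hypoxia library 3. In calorie restriction against vehicle, Agtr1a ran from -0.043 to 0.093 and Atp6ap2 from -0.002 to 0.047 so, and Atp6ap2 was -0.002 with the prefix term. In cisplatin alone against vehicle, Dpp3 ran from -0.023 to 0.031, Rgs2 from -0.090 to 0.166 and Avpr1a from -0.121 to 0.134, and Rgs2 was -0.060 with the prefix term.

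Depth limits Agtr1b and Agtr2, whose reads are too few for a comparison. Having 4 libraries per group, the uneven hypoxia group and its library 4 limit the rest. No paired analysis was possible because the labels number no replicates.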
